A study of Rattus norvegicus with 10 samples.

Results

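The genes described here are 10 that act in lytic forms of cell death and in the inflammasome: Ripk1, Ripk3, Mlkl, Casp8, Casp1, Casp4, Gsdmd, Nlrp3, Il1b and Bcl2a1. They were chosen by name, with earlier results of these data known. Each was read from the probe set that the array's annotation gives to that gene symbol alone. Of the 10 genes, 8 were found, each with 1 probe set, among 14506 genes named on the array. Mlkl, the pore-forming last step of necroptosis, and Nlrp3, the sensor of the best known inflammasome, had no probe set under their symbol or gene ID and were not analysed here.

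Kidneys of weanling male rats of the Wistar strain were taken after 6 days on a diet without choline or supplemented with it, with either vegetable oils (corn and hydrogenated oils, called corn oil in the sample labels) or menhaden oil, a fish oil, as the lipid. Each of the 10 arrays held RNA from 1 pool of 3 animals. The labels give 5 groups of 2 pools: choline-deficient with vegetable oil and called necrotic ("necrotic"), choline-deficient with vegetable oil and not so called ("deficient vegetable"), choline-supplemented with vegetable oil ("control vegetable"), choline-deficient with fish oil ("deficient fish") and choline-supplemented with fish oil ("control fish"). The necrotic pools had no diet of their own among the 4 diets of the protocol, and how kidneys were assigned to them is not stated, so a difference between the necrotic and the deficient vegetable kidneys compares animals of one diet that were sorted by a label. The series' title names acute renal failure under choline deficiency and protection by fish oil.

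In necroptosis, death receptors such as the TNF receptor bring Ripk1 and Ripk3 together, Ripk3 phosphorylates Mlkl, and Mlkl opens the plasma membrane; Casp8 cleaves the kinases and blocks this route. In pyroptosis, an inflammasome activates Casp1, or bacterial lipopolysaccharide activates Casp4, and the caspase cleaves gasdermin D (Gsdmd), whose fragments form pores through which mature interleukin 1 beta (Il1b) leaves the cell. Bcl2a1 is an anti-apoptotic relative of Bcl2, expressed mainly in blood cells and induced by NF-kB. Most of these proteins are switched on by cleavage or phosphorylation, which an array does not measure: the values below are mRNA levels.

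The array values are log2 intensities, so a difference of 1 is a 2-fold difference, and levels of different genes cannot be set against each other. Differences are given ± their standard error from a fit over all 10 arrays (limma), and a gene is said to have risen or fallen where its p-value was under 0.05 after Benjamini-Hochberg adjustment across the array's 29214 probe sets. The defining kidney genes were present on every array, but lower in the necrotic kidneys: the mean log2 level of 6 proximal tubule genes was 11.20 and 11.09 on the necrotic arrays and 12.63 to 13.08 on the other arrays. In whole kidney, fewer cells of a type and less RNA per cell cannot be told apart.

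Start site sequences were available for 7 of the 10 genes, and 3 are shown: Ripk3 and Bcl2a1, which had the largest differences between the diets, and Il1b, whose pools differed most. Each runs 5′ to 3′ in the direction of the gene, from 250 bases before the annotated start to 50 bases after it (RefSeq, GRCr8). Capitals mark a match to one of 4 searched motifs.
Ripk3 (chr15:33261976-33262275, minus strand): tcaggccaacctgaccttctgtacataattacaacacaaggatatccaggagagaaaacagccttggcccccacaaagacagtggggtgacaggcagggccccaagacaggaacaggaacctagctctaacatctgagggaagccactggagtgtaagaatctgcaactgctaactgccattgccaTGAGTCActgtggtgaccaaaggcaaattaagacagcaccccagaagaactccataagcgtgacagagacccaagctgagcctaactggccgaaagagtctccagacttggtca
Bcl2a1 (chr8:98596556-98596855, plus strand): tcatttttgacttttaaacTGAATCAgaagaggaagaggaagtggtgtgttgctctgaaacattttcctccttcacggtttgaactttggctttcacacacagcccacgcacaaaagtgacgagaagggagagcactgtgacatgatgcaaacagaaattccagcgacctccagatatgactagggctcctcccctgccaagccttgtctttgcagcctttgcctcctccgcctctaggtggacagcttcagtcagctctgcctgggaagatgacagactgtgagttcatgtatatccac
Il1b (chr3:137036532-137036831, minus strand): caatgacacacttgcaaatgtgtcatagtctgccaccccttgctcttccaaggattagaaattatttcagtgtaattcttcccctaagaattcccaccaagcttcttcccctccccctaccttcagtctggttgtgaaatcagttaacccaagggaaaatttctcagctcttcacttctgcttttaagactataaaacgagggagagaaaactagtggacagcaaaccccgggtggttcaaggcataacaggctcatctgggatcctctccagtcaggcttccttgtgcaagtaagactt
The motifs were searched on both strands: the AP-1 site TGANTCA, the STAT site TTCNNNGAA, the cAMP response element TGACGTCA and the NF-kB consensus. The match in Ripk3 was TGAGTCA, at -64 to -58 from the start, and that in Bcl2a1 was TGAATCA, at -231 to -225. AP-1 was thus found in 2 of the 7 start sites, against 7.33% of 33469 promoters of this length. The STAT site was found in 1 of 7 (Nlrp3), against 8.87%, and NF-kB in 0 of 7, against 7.51%. The cAMP response element was found in 0 of 7, against 1.83%. No found site overlapped another, and a match describes letters in this window only.

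In kidneys labelled necrotic, 7 of the 8 measured genes were higher than in control vegetable kidneys, by 1.31-fold (Casp8) to 2.84-fold (Ripk3), and none was lower. Over all probe sets, 10.2% were higher in this comparison and 20.9% changed in either direction. The median difference of the 8 genes was 0.81, against 0.06 over all probe sets. Ripk1 alone did not pass. Centring each array on its median moved the median of all probe sets to -0.04 and the calls from 2985 higher and 3113 lower to 2123 higher and 3739 lower, and 4 of the 8 genes (Ripk3, Casp4, Gsdmd and Bcl2a1) then rose. The plot of array values shows the 8 genes side by side.

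**Figure D1:**
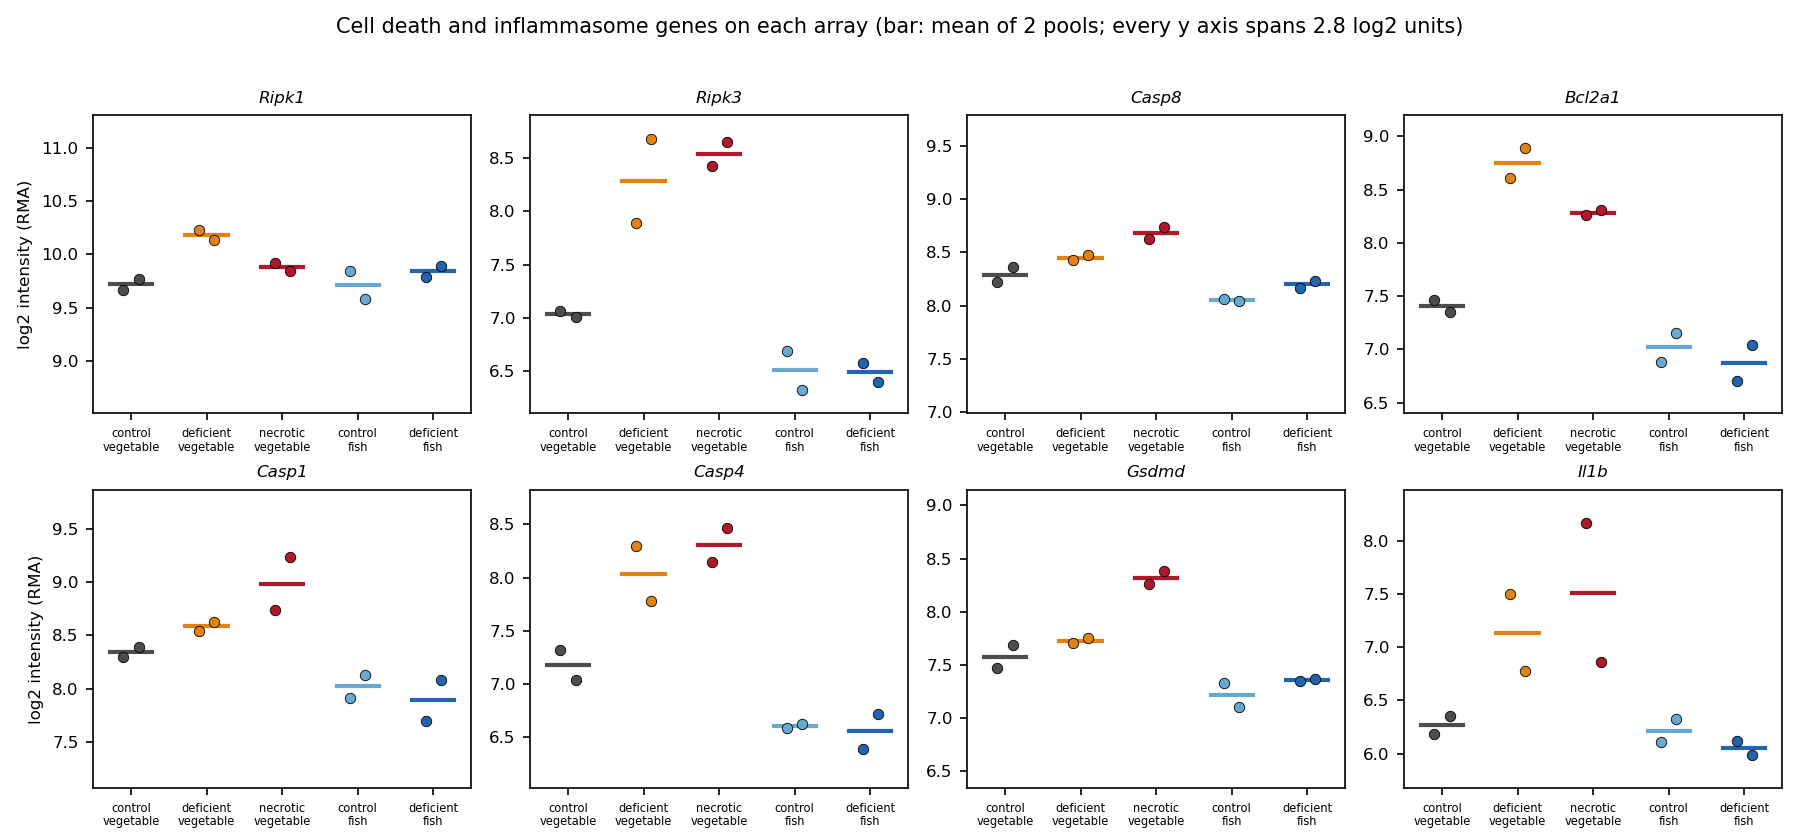
Log2 intensity of the 8 measured genes on each of the 10 arrays, by diet group; each point is 1 pool of 3 rats and each bar the mean of 2 pools, and every y axis covers the same span of 2.8 log2 units. Ripk3 was at 7.89 to 8.68 in the 4 choline-deficient vegetable oil pools (necrotic included) and at 6.33 to 7.07 in the other 6, and Gsdmd was at 8.26 and 8.38 in the necrotic pools and at or below 7.75 elsewhere.

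Ripk3, the kinase that commits a cell to necroptosis, was at 8.43 and 8.65 in the necrotic pools, 7.89 and 8.68 in the deficient vegetable pools, and 7.07 and 7.01 in the control vegetable pools. With fish oil it was at 6.58 and 6.40 in deficient and 6.69 and 6.33 in control pools. All 4 choline-deficient vegetable oil pools thus lay above the other 6, and the deficient vegetable pools were the ones that differed from each other. Ripk3 rose by 1.50 ± 0.24 in necrotic against control vegetable kidneys (adjusted p = 0.00301), and this call held when any 1 array was left out.

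Ripk1, the kinase that acts before Ripk3 and also in survival signalling, varied little. It was at 9.91 and 9.85 in necrotic, 10.23 and 10.14 in deficient vegetable, 9.67 and 9.77 in control vegetable, 9.79 and 9.89 in deficient fish, and 9.85 and 9.58 in control fish pools. The highest pools were those of the deficient vegetable kidneys, not the necrotic ones. Necrotic against control vegetable kidneys gave 0.16 ± 0.12 (adjusted p = 0.408; 95% interval -0.12 to 0.45), which includes 0.

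Casp8, the caspase that starts receptor-driven apoptosis and restrains necroptosis, was at 8.63 and 8.74 in necrotic and 8.43 and 8.47 in deficient vegetable pools. It was at 8.22 and 8.36 in control vegetable, 8.16 and 8.24 in deficient fish, and 8.06 and 8.04 in control fish pools. The range over all 10 arrays was narrow. Casp8 rose by 0.39 ± 0.11 in necrotic against control vegetable kidneys (adjusted p = 0.0342). The call ended when necrotic pool 1 or 2, control vegetable pool 1 or 2, or deficient fish pool 1 or 2 was left out (adjusted p = 0.0651, 0.128, 0.2, 0.0887, 0.0597 and 0.0597) and when each array was centred on its median (adjusted p = 0.136).

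Gsdmd, the pore-forming protein of pyroptosis, was at 8.26 and 8.38 in necrotic pools. It was at 7.71 and 7.75 in deficient vegetable, 7.47 and 7.69 in control vegetable, 7.35 and 7.37 in deficient fish, and 7.33 and 7.11 in control fish pools. The necrotic pools stood above all other 8, which ran from 7.11 to 7.75. Gsdmd rose by 0.74 ± 0.13 in necrotic against control vegetable kidneys (adjusted p = 0.00415), without exception when any 1 array was left out.

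Casp1, the caspase that matures interleukin 1 beta, was at 8.73 and 9.23 in necrotic and 8.54 and 8.62 in deficient vegetable pools. It was at 8.30 and 8.39 in control vegetable, 7.70 and 8.08 in deficient fish, and 7.92 and 8.12 in control fish pools. The groups followed one another in this order on vegetable oil, and both fish oil groups lay below them. Casp1 rose by 0.64 ± 0.19 (adjusted p = 0.044). The call ended without necrotic pool 2 (0.39, adjusted p = 0.198), control vegetable pool 1 or 2 (adjusted p = 0.18 and 0.137), deficient vegetable pool 1 or 2 (both 0.0579) or control fish pool 1 or 2 (both 0.0565), and with median centring or cyclic loess scaling (adjusted p = 0.0979 and 0.0596).

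Casp4, the caspase of the non-canonical inflammasome, was at 8.15 and 8.46 in necrotic and 8.30 and 7.78 in deficient vegetable pools. It was at 7.32 and 7.04 in control vegetable, 6.39 and 6.72 in deficient fish, and 6.59 and 6.63 in control fish pools. All 4 choline-deficient vegetable oil pools exceeded the other 6. Casp4 rose by 1.12 ± 0.21 in necrotic against control vegetable kidneys (adjusted p = 0.0056), a call lost without control vegetable pool 2 alone among the 10 arrays (0.98, adjusted p = 0.052).

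Il1b, the cytokine itself, was at 8.17 and 6.86 in necrotic and 7.50 and 6.77 in deficient vegetable pools. It was at 6.18 and 6.36 in control vegetable, 6.12 and 5.99 in deficient fish, and 6.11 and 6.32 in control fish pools. Pools of one group differed by up to 1.31 under choline deficiency with vegetable oil and by at most 0.22 in the other 3 groups. Il1b rose by 1.24 ± 0.38 (adjusted p = 0.0498), at the edge of the threshold. Without necrotic pool 1 the difference was 0.59 (adjusted p = 0.223). The call also ended without control vegetable pool 1 or 2 (0.189 and 0.145), deficient fish pool 1 or 2 (both 0.0707) or control fish pool 1 or 2 (both 0.0706), and under median centring, repeated quantile normalization, cyclic loess and a trended, robust prior (0.0643, 0.0718, 0.0676 and 0.0533).

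Bcl2a1, the survival gene, was at 8.26 and 8.31 in necrotic, 8.60 and 8.89 in deficient vegetable, and 7.46 and 7.35 in control vegetable pools. With fish oil it was at 6.70 and 7.04 in deficient and 6.88 and 7.15 in control pools. Its highest values were in the deficient vegetable kidneys rather than in those called necrotic. Bcl2a1 rose by 0.88 ± 0.16 in necrotic against control vegetable kidneys (adjusted p = 0.00558), also when any 1 array was left out.

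Choline deficiency with vegetable oil, in kidneys not called necrotic, gave a higher value of every one of the 8 genes than in control vegetable kidneys, but only Bcl2a1 passed, at 1.34 ± 0.16 or 2.54-fold (adjusted p = 0.00781). Over all probe sets 0.893% were higher in this comparison, and the median difference was 0.66 for the 8 genes and 0.01 over all probe sets. Ripk3 was 1.25 ± 0.24 higher, just outside the threshold (adjusted p = 0.0549), and it passed when deficient vegetable pool 1 was left out (1.65, adjusted p = 0.00953) and with median centring (adjusted p = 0.0444). Bcl2a1 in turn did not pass without deficient vegetable pool 2 (adjusted p = 0.0507) or without control vegetable pool 1 or 2 (0.0746 and 0.085).

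The other 6 genes did not pass in that comparison. Casp4 gave 0.86 ± 0.21 (adjusted p = 0.108), Il1b 0.87 ± 0.38 (0.329) and Ripk1 0.47 ± 0.12 (0.141). The differences of Casp1, Casp8 and Gsdmd were the smallest, at 0.24 ± 0.19, 0.16 ± 0.11 and 0.15 ± 0.13 (adjusted p = 0.575, 0.517 and 0.605). The deficient vegetable pools lay above both control pools for all 8 genes and for 25.7% of all probe sets. An unadjusted p under 0.05 in limma was found for 5 of the 8 genes and for 15.2% of all probe sets.

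**Figure D2:**
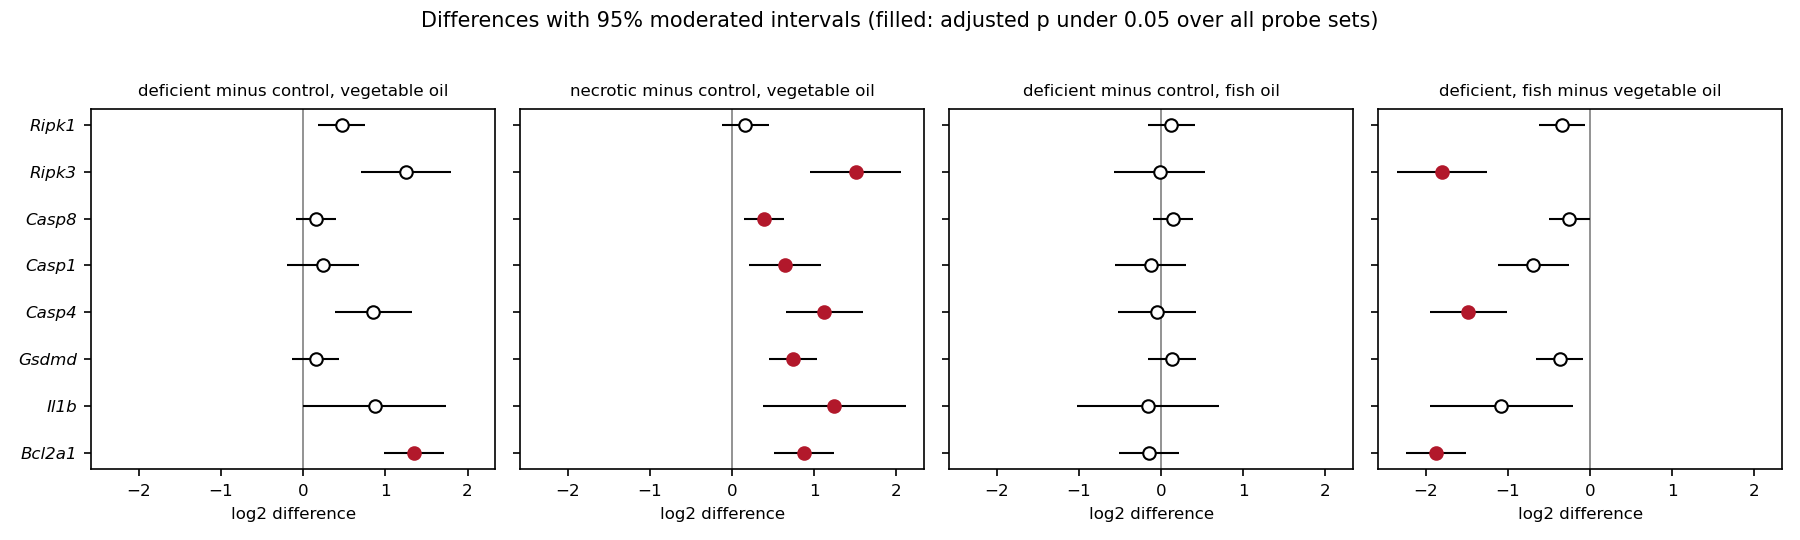
Log2 differences of the 8 genes in 4 comparisons, with 95% moderated intervals; filled points passed an adjusted p of 0.05 over all probe sets. The deficient vegetable and the necrotic kidneys share their control arrays, so their panels are not independent; under fish oil the differences lay between -0.16 and 0.15.

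Between necrotic and deficient vegetable kidneys, which share a diet, Gsdmd was the gene that passed: it was 0.59 ± 0.13 higher, or 1.51-fold, in the necrotic pools (adjusted p = 0.0231), where 4.71% of all probe sets were higher. The call ended when either necrotic pool (adjusted p = 0.0557 and 0.113) or either deficient vegetable pool (0.115 and 0.0528) was left out. Bcl2a1 and Ripk1 gave values in the opposite direction, at -0.47 ± 0.16 (adjusted p = 0.113) and -0.30 ± 0.12 (adjusted p = 0.18). Neither difference passed the test.

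Casp1 gave 0.40 ± 0.19, Casp8 0.23 ± 0.11, Casp4 0.27 ± 0.21, Ripk3 0.25 ± 0.24 and Il1b 0.37 ± 0.38 (adjusted p between 0.241 and 0.652). The Casp4, Ripk3 and Il1b pools of these groups overlapped. The median over the 8 genes was 0.26, against 0.02 over all probe sets. For Ripk3 and Il1b the sign rested on a single pool: it turned to -0.14 for Ripk3 without deficient vegetable pool 1 and to -0.28 for Il1b without necrotic pool 1.

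With fish oil, choline deficiency left the 8 genes between -0.16 (Il1b) and 0.15 (Casp8) of their control fish values, and none passed. No probe set of the array passed in this comparison either (0 of 29214, or 0%), with limma as with its trended and robust form, while 1036 probe sets (3.55%) and 0 of the 8 genes had an unadjusted p under 0.05 in limma. The 95% intervals were -0.57 to 0.53 for Ripk3, -0.51 to 0.22 for Bcl2a1, -0.52 to 0.42 for Casp4 and -1.03 to 0.71 for Il1b. Their widths rest on the pool spread in the fit over all arrays, not on the fish oil arrays alone. For Il1b the 2 pools differed by 0.13 in deficient fish and 0.22 in control fish kidneys. They differed by 1.31 in necrotic, 0.73 in deficient vegetable and 0.17 in control vegetable kidneys.

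Among choline-deficient kidneys, those on fish oil had lower values of all 8 genes than the deficient vegetable kidneys, and 3 of the 8 fell. Over all probe sets 1.39% were lower. Bcl2a1 fell by 1.88 on the log2 scale (SE 0.16, 3.68-fold, adjusted p = 0.00158), Ripk3 fell by 1.80 (SE 0.24, 3.49-fold, adjusted p = 0.0114) and Casp4 fell by 1.48 (SE 0.21, 2.79-fold, adjusted p = 0.0125). The Ripk3 and Casp4 calls ended without deficient fish pool 1 (adjusted p = 0.0588 and 0.0875) or pool 2 (0.0981 and 0.0549), and all 3 ended in a fit of these 4 arrays alone (0.129, 0.126 and 0.0615 for Ripk3, Casp4 and Bcl2a1).

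The other 5 did not pass in that comparison. The deficient fish pools lay below both deficient vegetable pools for all 8 genes and for 19.7% of all probe sets, and an unadjusted p under 0.05 was found for all 8 and for 12.6%. Il1b gave -1.08 ± 0.38 (adjusted p = 0.268) and Casp1 -0.69 ± 0.19 (0.147). Gsdmd gave -0.37 ± 0.13 (0.255), Ripk1 -0.34 ± 0.12 (0.286) and Casp8 -0.25 ± 0.11 (0.386). The median of the 8 genes was -0.89, against 0.01 over all probe sets.

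Against the necrotic kidneys, which had the other oil but also lacked choline, 7 of the 8 genes fell, in deficient fish kidneys, where 10.5% of all probe sets were lower. Median centring moved all calls here from 2701 higher and 3062 lower to 3483 higher and 2282 lower. Ripk3 fell by 2.05 (SE 0.24, 4.15-fold, adjusted p = 0.000634), Casp4 fell by 1.75 (SE 0.21, adjusted p = 0.000631) and Bcl2a1 fell by 1.41 (SE 0.16, adjusted p = 0.000546). Casp1 fell by 1.09 (SE 0.19, adjusted p = 0.0042) and Gsdmd fell by 0.96 (SE 0.13, adjusted p = 0.00114). These 5 calls held whichever array was left out. Il1b fell by 1.46 (SE 0.38, adjusted p = 0.028) and Casp8 fell by 0.48 (SE 0.11, adjusted p = 0.0141), while Ripk1 gave -0.04 ± 0.12 (adjusted p = 0.89).

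The Il1b call in that comparison ended without necrotic pool 1 (-0.80, adjusted p = 0.104) or without deficient fish pool 1 or 2 (0.0938 and 0.123). The Casp8 call ended without necrotic pool 2 (0.0741), without deficient fish pool 1 or 2 (0.097 and 0.061) and with median centring (0.0594).

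The oil itself was compared in choline-supplemented kidneys. All 8 genes were lower in control fish than in control vegetable kidneys, from -0.58 (Casp4) to -0.002 (Ripk1), with a median of -0.34 against 0.03 over all probe sets. None passed, where 0.185% of all probe sets changed. In limma 3 of the 8 had an unadjusted p under 0.05, as did 12.4% of all probe sets. The control fish pools lay below both control vegetable pools for 6 of the 8, all but Ripk1 and Il1b, and for 21.7% of all probe sets.

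Whether the effect of choline deficiency differed between the oils was tested as an interaction, the difference on vegetable oil minus that on fish oil. With the necrotic pools, which were sorted by a label, the interaction is not one of diet alone. For the necrotic kidneys it passed for 3 of the 8 genes, against 3.82% of all probe sets in this direction and 8.72% in either: Ripk3 at 1.52 ± 0.34 (adjusted p = 0.029), Casp4 at 1.17 ± 0.29 (0.042) and Bcl2a1 at 1.02 ± 0.23 (0.0275). The 8 genes ranged from 0.04 to 1.52, with a median of 0.90 against 0.08 over all probe sets. Median centring moved all calls here from 1117 higher and 1431 lower to 818 higher and 1670 lower. For the deficient vegetable kidneys the 8 genes ranged from 0.01 to 1.49, with a median of 0.64 against 0.02. None of these passed, where 0.103% of all probe sets did, and 3 of the 8 had an unadjusted p under 0.05 in limma, against 9.9%.

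Each of these 3 calls ended when any 1 of several arrays was left out, while the differences kept their sign. With 1 array left out they ran from 0.86 to 1.19 for Bcl2a1, 1.34 to 1.70 for Ripk3 and 1.01 to 1.34 for Casp4. The Bcl2a1 call ended without either necrotic pool (adjusted p = 0.0638 and 0.071), either control vegetable pool (0.0758 and 0.111), deficient fish pool 1 (0.0961) or control fish pool 2 (0.0857). The Ripk3 call ended without either necrotic pool (0.0548 and 0.081), either control vegetable pool (0.0852 and 0.104), either deficient fish pool (0.069 and 0.101) or control fish pool 1 (0.0912). The Casp4 call was lost without any single necrotic, control vegetable or fish oil pool (0.0535 to 0.155) and under median centring, repeated quantile normalization or cyclic loess (0.082, 0.0722 and 0.096).

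These comparisons share arrays with one another, so their values stand side by side. The genes fell into different profiles over the vegetable oil groups. Bcl2a1 and Ripk1 had their highest mean in the deficient vegetable kidneys, at 8.75 ± 0.21 and 10.19 ± 0.07 (SD, n = 2), above 8.28 ± 0.04 and 9.88 ± 0.05 in the necrotic ones. Gsdmd, Casp1, Casp8, Casp4, Ripk3 and Il1b had theirs in the necrotic kidneys. Among neighbours in the order of group means on vegetable oil, 2 steps passed the test: necrotic above deficient vegetable kidneys for Gsdmd, and necrotic above control vegetable kidneys for Bcl2a1 (0.88, adjusted p = 0.00558). The other neighbours did not differ beyond the test's threshold. On fish oil the order of the 2 groups passed for none of the 8.

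Leukocyte genes moved with these groups. Of 4 genes that mark all leukocytes (Ptprc, Cd53, Laptm5, Coro1a), 4 rose in necrotic against control vegetable kidneys (10.2% of all probe sets). In deficient against control vegetable kidneys 1 rose (0.893%), and 3 fell in deficient fish against deficient vegetable kidneys (1.39%). The summed level of the 4 genes, as log2, was 11.91 and 11.95 in necrotic, 11.26 and 11.98 in deficient vegetable, and 10.61 and 10.62 in control vegetable pools. It was 10.29 and 10.32 in deficient fish and 10.26 and 10.30 in control fish pools. The deficient vegetable pool with the lower leukocyte level was also the one with the lower Ripk3 (7.89 against 8.68). Its Il1b and Casp4 were the higher of the pair.

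Of 16 monocyte and macrophage genes, 13 rose in necrotic (10.2% of all probe sets) and 3 in deficient vegetable kidneys (0.893%), each against control vegetable. In deficient fish against deficient vegetable kidneys 11 fell (1.39%). The summed level of the 16 genes, as log2, was 14.72 to 14.75 in necrotic, 13.82 to 14.39 in deficient vegetable, 13.11 to 13.14 in control vegetable and 12.78 to 13.06 in fish oil pools. Of 11 measured neutrophil genes of 12 listed, 5 rose in necrotic kidneys against control vegetable (10.2% of all probe sets). The summed log2 level of the 11 was 10.93 to 11.47 in necrotic, 10.46 to 10.48 in deficient vegetable, 10.64 to 10.90 in control vegetable and 9.84 to 9.96 in fish oil pools. A sum is weighted to the highest genes, and Mmp9 differed by -1.17 in deficient vegetable and -2.08 in control fish kidneys, each against control vegetable (adjusted p = 0.0663 and 0.0196). By the mean log2 level of the 11 genes, deficient vegetable pools (6.53 and 6.56) lay above control vegetable pools (6.28 and 6.32). The fish oil pools were at 5.99 to 6.19 by that mean. Of 10 measured lymphocyte genes of 12 listed, Nkg7 (-1.13) and Prf1 (-0.64) fell in necrotic against control vegetable kidneys (10.7% of all probe sets). The median difference of the 10 was 0.08. Their summed log2 levels were 10.68 to 10.80 in necrotic and 10.43 to 11.04 in the other pools. On the tubule side, 5 of 6 proximal tubule genes fell in necrotic against control vegetable kidneys (10.7% of all probe sets). The summed log2 level of the 6 was 14.08 to 14.17 in necrotic and 15.40 to 15.80 in the other pools. In the same comparison 3 of 3 thick ascending limb, 3 of 3 collecting duct, 2 of 2 measured podocyte and 2 of 4 endothelial genes fell. The part of these cell type shifts in the differences of the 8 genes was not tested.

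**Figure D3:**
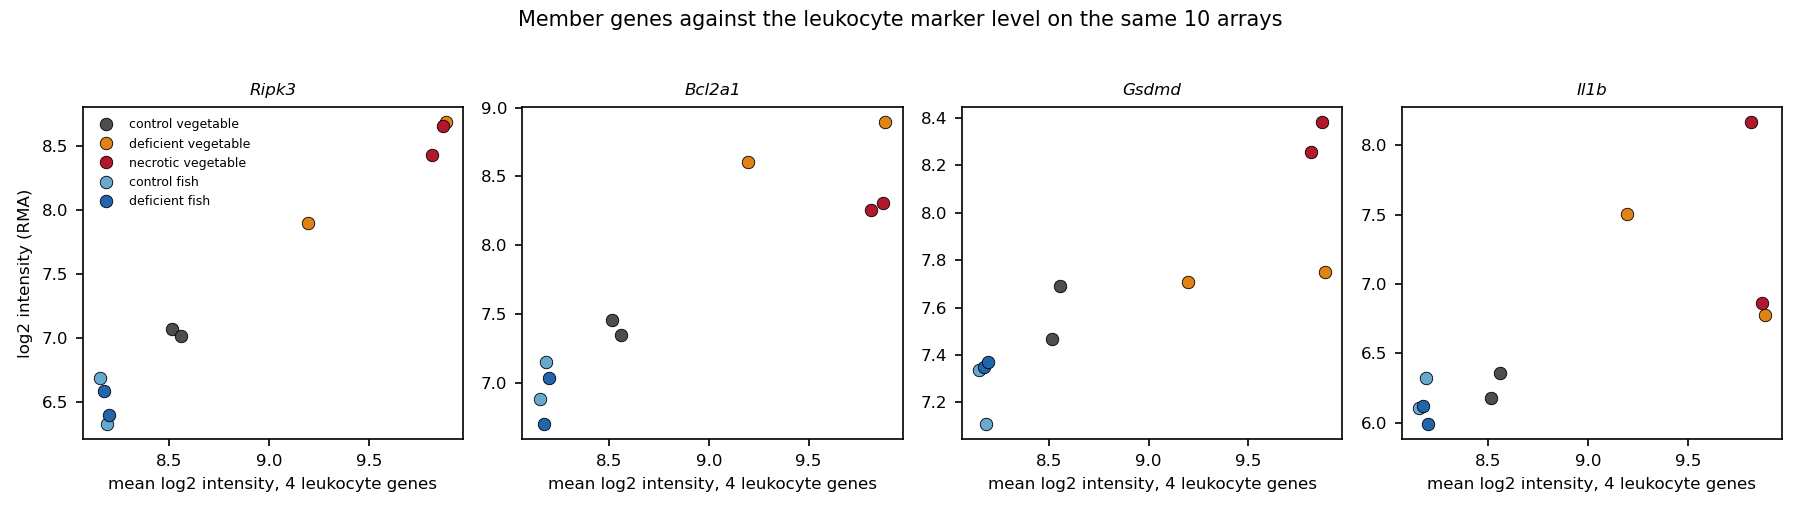
Log2 intensity of Ripk3, Bcl2a1, Gsdmd and Il1b on each array (y axes) against the mean log2 intensity of 4 leukocyte genes on the same array (x axes), coloured by group; each point is 1 pool. The 6 pools other than choline-deficient vegetable oil lay at a leukocyte mean of 8.15 to 8.56, below the 4 choline-deficient vegetable oil pools. Those 4 were also the highest 4 in all genes shown, for Gsdmd by a small margin (7.71 against 7.69). The same held for Casp8, Casp1 and Casp4, not drawn here, but not for Ripk1.

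The genes whose values ran most like each member over the 10 arrays were listed as a description. All 10 points share the array, its scaling and the 5 groups, and 14505 other genes were compared. Ripk3 ran closest to Lsp1, Coro1a and Cd53 (Pearson r = 0.997, 0.995 and 0.990), of which Coro1a and Cd53 are on the leukocyte list. Bcl2a1 ran closest to Nfkb1, LOC681325 and Ubd (0.986, 0.982 and 0.979). Gsdmd ran closest to Il3ra, Rpn2 and Angel1 (0.986, 0.983 and 0.982), and Casp8 to Lhfpl6, Zfp57 and Flii (0.988, 0.985 and 0.981). Il1b ran closest to the chemokine gene Cxcl1 (0.967), then Plscr1 (0.964) and Cyp24a1 (0.936). Casp4 ran closest to Acsl5, Twf1 and the endothelin gene Edn1 (0.984, 0.976 and 0.972), and Casp1 to Dync1i2, Adamts9 and Slc9a9 (0.977, 0.977 and 0.968). Ripk1 ran closest to Kctd19, Kcnj5 and Ddx3x (0.950, 0.946 and 0.923). Among the members themselves, r ran from 0.34 (Ripk1 with Casp1) to 0.97 (Casp8 with Gsdmd).

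The wider pathway was read from lists of the genes around the members. Of 30 measured necroptosis and death receptor genes (32 listed), 8 rose and 2 fell in necrotic against control vegetable kidneys, with a median difference of 0.16. Over all probe sets 10.2% were higher and 10.7% lower in this comparison, against which the counts of each list are to be read. Birc3, a ubiquitin ligase of the receptor complex and an NF-kB target, rose by 1.68 ± 0.14 (adjusted p = 0.000161), Tnfrsf1a, the main TNF receptor, by 1.07 ± 0.12 (0.000446) and Tlr4, the lipopolysaccharide receptor, by 1.00 ± 0.17 (0.00358). Fas rose by 0.73 ± 0.14, Optn by 0.73 ± 0.20 and the TRAIL receptor Tnfrsf10b by 0.69 ± 0.14 (adjusted p = 0.00754, 0.0294 and 0.00815). The Fas call ended without control vegetable pool 2 (0.0697), the Tnfrsf10b call without control vegetable pool 1 (0.0716) and the Optn call without necrotic pool 1 (0.167), either control vegetable pool (0.129 and 0.116) and with median centring.

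Birc3 and Tnfrsf1a also rose in deficient against control vegetable kidneys, the only 2 of the 30 genes of this list to do so (0.893% of all probe sets). Tnfrsf1a was at 11.58 and 11.45 in deficient vegetable and 11.59 and 11.50 in necrotic pools, and between 10.44 and 10.72 in the other 6. The pools with and without the label necrotic overlapped, and Tnfrsf1a rose by 1.04 ± 0.12 (adjusted p = 0.00577). Birc3 was at 7.44 and 7.33 in deficient vegetable, 7.96 and 8.12 in necrotic, and 6.16 to 6.55 in the other 6 pools, and it rose by 1.03 ± 0.14 (adjusted p = 0.0159). Against deficient vegetable kidneys, deficient fish kidneys had lower Birc3 (-1.16 ± 0.14, adjusted p = 0.00774), Tnfrsf1a (-0.86 ± 0.12, 0.0112) and the TRAIL gene Tnfsf10 (-1.32 ± 0.25, 0.0372). Tnfsf10 was lower in necrotic than in deficient vegetable kidneys too (-1.19 ± 0.25, adjusted p = 0.0197). Birc3 (0.66 ± 0.14, 0.0247) and Tlr4 (0.68 ± 0.17, 0.0382) were higher there, where 4.71% of all probe sets were higher.

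The calls above in the comparisons without necrotic kidneys each ended when certain single arrays were left out. In deficient against control vegetable kidneys the Tnfrsf1a call ended without control vegetable pool 1 or 2 (0.0791 and 0.0633), and the Birc3 call without deficient vegetable pool 2 or control vegetable pool 1 (0.0708 and 0.124). In deficient fish against deficient vegetable kidneys the Birc3 and Tnfrsf1a calls ended without deficient fish pool 1 (0.0545 and 0.086) or pool 2 (0.0766 and 0.0862). The Tnfsf10 call ended there without either deficient vegetable (0.111 and 0.0534), control vegetable (both 0.0774) or deficient fish pool (0.197 and 0.19).

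Of 23 measured inflammasome genes (29 listed), 6 rose and 2 fell in necrotic against control vegetable kidneys (10.2% and 10.7% of all probe sets), with a median of 0.22. The adaptor Pycard (ASC), through which sensors bind Casp1, was at 8.92 in the lower of the necrotic pools and at 7.87 in the higher of the control vegetable pools, and rose by 1.19 ± 0.27 (adjusted p = 0.0151). The inflammatory caspase Casp12 rose by 1.11 ± 0.24 (0.0129), the pyrin gene Mefv by 0.95 ± 0.19 (0.00889) and Nod2, a sensor of bacterial wall fragments, by 0.59 ± 0.14 (0.0201). The Pycard call was lost when any necrotic or control vegetable pool was left out (0.0526 to 0.0917). The Casp12 call ended without necrotic pool 2 (0.0698) or either control vegetable pool (0.0575 and 0.0802), the Nod2 call without necrotic pool 1 (0.115) or either control vegetable pool (0.105 and 0.0928), and the Mefv call without control vegetable pool 1 (0.0589).

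The 2 genes of this list that fell had the 2 largest differences in it. Nlrp6, a sensor best known from epithelia, was at 6.64 and 7.14 in necrotic, 8.55 and 7.93 in deficient vegetable, and 8.55 to 8.99 in the other 6 pools. Gsdme, the gasdermin cleaved by the apoptotic caspase 3, was at 6.99 and 7.39 in necrotic, 8.84 and 7.94 in deficient vegetable, and 8.78 to 9.13 in the other 6 pools. Necrotic pools were below all others for both genes. Nlrp6 fell by 1.91 (SE 0.24, adjusted p = 0.000926) and Gsdme fell by 1.89 (SE 0.27, adjusted p = 0.00163) against control vegetable kidneys, whichever array was left out. Gsdme and Gsdmd thus moved in opposite directions in the same pools. Against deficient vegetable kidneys the necrotic ones were also lower in Nlrp6 (-1.35 ± 0.24, adjusted p = 0.0105) and Gsdme (-1.20 ± 0.27, 0.0254). Those calls ended without necrotic pool 1 (0.0565 and 0.125) or deficient vegetable pool 1 (0.0683 and 0.0944), and for Gsdme also without necrotic pool 2 (0.056). Genes of the proximal tubule, thick ascending limb, collecting duct and podocytes fell in the necrotic pools too, as did 2 of 4 endothelial genes. The part of these cell types in the falls of Nlrp6 and Gsdme was not tested.

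The interleukin 1 family held the 3 largest differences of the 5 lists: of 20 measured genes (22 listed), 12 rose and 1 fell in necrotic against control vegetable kidneys (10.2% and 10.7% of all probe sets), with a median of 0.53. The decoy receptor Il1r2, which binds interleukin 1 without signalling, was at 8.78 and 8.25 in necrotic, 5.83 and 6.52 in deficient vegetable, and 5.31 to 5.80 in the other 6 pools. It rose by 3.02 ± 0.25 (adjusted p = 0.000142). The receptor antagonist Il1rn was at 8.52 and 8.44 in necrotic, 7.74 and 8.29 in deficient vegetable, and 5.72 to 6.28 in the other 6 pools, and rose by 2.29 ± 0.20 (0.000162). The interleukin 33 receptor Il1rl1 rose by 2.77 ± 0.20 (8.44e-05), the signalling receptor Il1r1 by 1.80 ± 0.11 (4.8e-05), the inhibitory kinase Irak3 by 1.28 ± 0.17 (0.00133) and Il18r1 by 1.23 ± 0.16 (0.00118). All 6 calls held whichever array was left out.

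**Figure D4:**
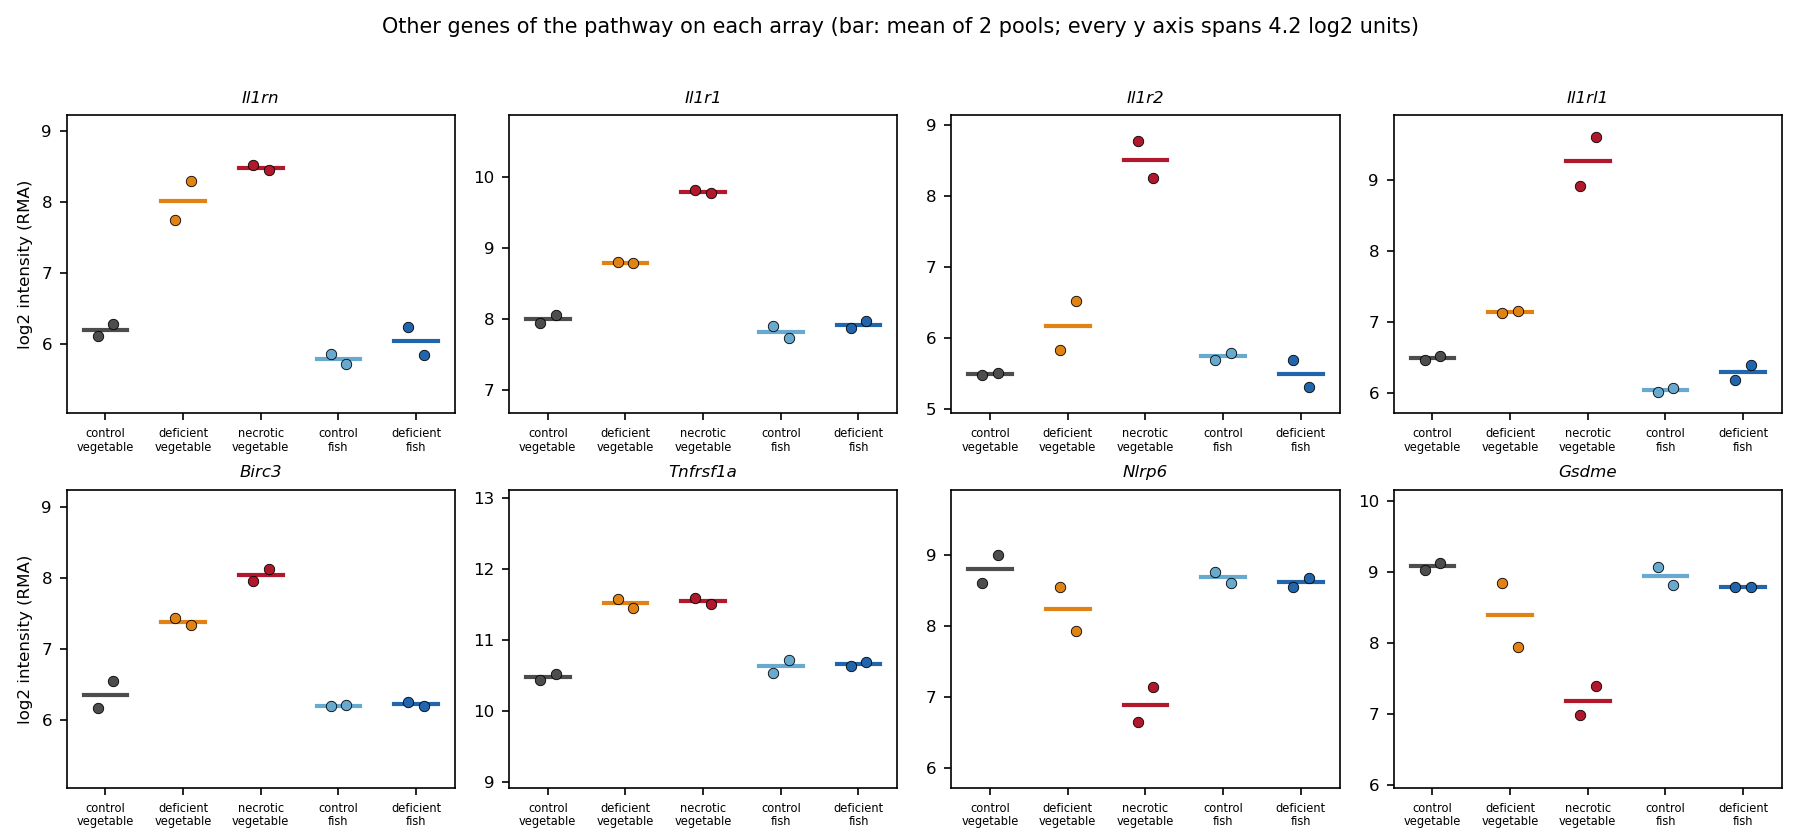
Log2 intensity of 8 other genes of the pathway on each array, by group; points are pools, bars the mean of 2 pools, and every y axis covers 4.2 log2 units. Il1rn, Il1r1, Birc3 and Tnfrsf1a were raised in both choline-deficient vegetable oil groups, Il1r2 was at 8.25 and 8.78 in the necrotic pools and at or below 6.52 elsewhere, and Nlrp6 and Gsdme were lowest in the necrotic pools.

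In deficient against control vegetable kidneys, Il1rn rose by 1.82 ± 0.20 (adjusted p = 0.00525) and Il1r1 by 0.80 ± 0.11 (0.0168), 2 of the 20 (0.893% of all probe sets). The Il1rn call ended without control vegetable pool 1 or 2 (0.0694 and 0.0537), and the Il1r1 call without deficient vegetable pool 2 (0.0853) or control vegetable pool 1 or 2 (0.157 and 0.114). Between necrotic and deficient vegetable kidneys, 5 of the 20 were higher in the necrotic pools (4.71% of all probe sets) and 1 was lower. Il1r2 was higher by 2.34 ± 0.25, Il1rl1 by 2.12 ± 0.20 and Il1r1 by 1.00 ± 0.11 (adjusted p = 0.00113, 0.000702 and 0.00142), whichever array was left out. The lower gene was the inhibitory receptor Sigirr (-0.94 ± 0.16, adjusted p = 0.00859). For comparison, Il1b gave 0.37 ± 0.38 between these same groups. In deficient fish against deficient vegetable kidneys, 3 of the 20 fell (1.39% of all probe sets) and 0 rose. Il18bp fell by 0.79 (SE 0.14, adjusted p = 0.0322). Il1rn fell by 1.98 (SE 0.20, adjusted p = 0.00291), also without any 1 array. Il1r1 fell there by 0.87 (SE 0.11, 0.00968), a call that ended without deficient fish pool 1 or 2 (0.0839 and 0.0696).

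Of the relatives of Bcl2a1, 4 of 19 measured BCL2 family genes (20 listed) rose in necrotic against control vegetable kidneys, with a median of 0.27, and none fell. With 20.9% of all probe sets called in either direction, the share called in either direction is near the background and is no result about the family. By direction, 10.2% of all probe sets were higher and 10.7% lower. Pmaip1 (Noxa) rose by 0.76 ± 0.17, Bak1, a pore former of the mitochondrial membrane, by 0.67 ± 0.15, Bid, which Casp8 cleaves, by 0.61 ± 0.12 and Bcl2l11 (Bim) by 0.61 ± 0.14 (adjusted p = 0.0132, 0.0159, 0.00894 and 0.0162). Each of these calls ended without control vegetable pool 1 (0.0537, 0.108, 0.0571 and 0.113) or pool 2 (0.0902, 0.052, 0.0616 and 0.0501). Without necrotic pool 1, Pmaip1 and Bak1 did not pass (0.0809 and 0.0717), and without necrotic pool 2, Bak1 and Bcl2l11 did not (0.0527 and 0.0827). Bcl2l11 also did not pass with median centring.

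Of 12 measured apoptotic caspase genes and their regulators (14 listed), 2 rose and 3 fell in necrotic against control vegetable kidneys, with a median of -0.14 (20.9% of all probe sets were called in either direction). Aifm1, a mitochondrial flavoprotein, fell by 0.89 (SE 0.12, adjusted p = 0.0014), Endog fell by 0.79 (SE 0.15, 0.00767) and cytochrome c (Cycs) fell by 0.68 (SE 0.12, 0.00401). Diablo and Htra2, which mitochondria also release, gave -0.22 and -0.24 and did not pass (0.173 and 0.194). In the same pools 5 of 6 proximal tubule genes fell, as did genes of the thick ascending limb, collecting duct and podocytes and 2 of 4 endothelial genes. The part of these cell types in the values was not tested. Apaf1, the scaffold of the apoptosome, rose by 0.76 ± 0.21 (0.0362) and Birc5 (survivin), which is also a gene of dividing cells, by 0.70 ± 0.18 (0.0259). The Endog call ended without control vegetable pool 1 (0.0518), the Apaf1 call without necrotic pool 2 or control vegetable pool 1 or 2 (0.164, 0.118 and 0.164), and the Birc5 call without necrotic pool 2 or control vegetable pool 2 (0.118 and 0.173). Apaf1 and Birc5 also did not pass with median centring. In deficient fish against control fish kidneys none of the 104 measured genes of these 5 lists passed in limma, and 2 had an unadjusted p under 0.05.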

How the data were processed

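The authors deposited log2 intensities per probe set, made with RMA per the submitters' processing notes; no source used here names the software or its version. RMA scales all arrays to one distribution, so a shift shared by most probe sets would not be seen. Values ran from 1.62 to 14.72 (array medians 7.28 to 7.43) and were used as deposited. Of 29214 probe sets, 15310 had 1 gene symbol in the platform annotation, 323 had several and 13581 were not named. A gene was read from its probe set with the highest mean.

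One limma model (version 3.58.1 under R 4.3.3; moderated by eBayes, 5 residual and 3.59 prior degrees of freedom) held all 10 arrays and gave 9 contrasts, and Benjamini-Hochberg adjustment over all probe sets; the fit was tested on simulated data. P-values measure the spread between pools of animals. The members, lists and tests were chosen with earlier results of these data known. Named pathway genes are up to 6 per list with the largest difference among those passing in necrotic against control vegetable kidneys, and up to 4 in other comparisons. Alternatives were other scalings, a filter at the 25th percentile, a trended prior, a replicate block, fits of the compared groups alone and leaving out each array.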

Additional observations from a re-analysis of the deposited data

Results flagged for a closer look

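The interaction test in limma for the necrotic kidneys (vegetable oil difference minus fish oil difference, adjusted p under 0.05) passed for 3 of the 8 measured genes. It passed for 15 of the 104 measured genes of the pathway lists, against 8.72% of all probe sets in either direction. The necrotic pools were sorted by a label, so this interaction is not one of diet alone. With the deficient vegetable kidneys in their place it passed for 0 of the 8 genes, 0 of the 104 and 0.103% of all probe sets. Groups of 2 pools were not tested for outliers.

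Of the 8 genes, those that passed in limma with the necrotic kidneys were Ripk3 (1.52, adjusted p = 0.029), Casp4 (1.17, 0.042) and Bcl2a1 (1.02, 0.0275). Among death receptor genes they were Birc3 (1.66, 0.00267), Tnfrsf1a (1.04, 0.00709) and Tnfrsf10b (0.81, 0.0382). In the interleukin 1 family the interaction was 3.27 for Il1r2, 2.52 for Il1rl1, 2.05 for Il1rn and 1.69 for Il1r1 (adjusted p = 0.00159, 0.00194, 0.00393 and 0.000967), and these 4 calls, with those of Birc3 and Tnfrsf1a, held whichever array was left out. The family's other 3 calls, outside the naming rule and given after their values were seen, were 1.18 for Irak3, 0.93 for Il18r1 and -1.10 for the inhibitory receptor Sigirr (0.0204, 0.0398 and 0.0194). Among inflammasome genes it was -1.84 for Nlrp6, -1.73 for Gsdme and 0.86 for the DNA sensor Aim2 (0.0135, 0.0257 and 0.0418), and among mitochondrial regulators -0.96 for Endog and -0.93 for Aifm1 (0.0299 and 0.0137).

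The Aim2 interaction combined values that passed in neither oil: 0.48 ± 0.15 in necrotic against control vegetable kidneys (adjusted p = 0.0563) and -0.39 ± 0.15 in deficient against control fish kidneys (adjusted p = 1). Its call ended without any 1 array but control fish pool 2 (0.0516 to 0.142). The Irak3 and Sigirr calls ended without either control vegetable or deficient fish pool, control fish pool 2 or necrotic pool 1, and for Irak3 also necrotic pool 2 (up to 0.0827 and 0.083). The Il18r1 call ended without any single necrotic, control vegetable or fish oil pool (0.0555 to 0.133), with the replicate block (0.0564) and with median centring, repeated quantile normalization or cyclic loess (0.0951, 0.139 and 0.159). The Tnfrsf10b, Gsdme and Endog calls ended without at least 7 of the 10 arrays in turn (up to 0.137, 0.0981 and 0.106), the Aifm1 call without either control vegetable or deficient fish pool (0.053 to 0.0622), and the Nlrp6 call without control vegetable, deficient fish or control fish pool 2 (0.0618, 0.0525 and 0.0511).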

How the results depend on the processing

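With 2 pools a group, many calls lie near the threshold. Of the 22 member differences that passed, 161 of 220 values with 1 array left out and 132 of 154 under the other settings still passed, and none changed sign. Of the 21 that did not pass in the comparisons given gene by gene, 4 values passed under an alternative and 4 changed sign. No detection values or scanner signals were used here, so distance from background is unknown, and the mean over a gene's probe sets is no alternative because each gene had 1.

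Of the 8 genes, the number that passed in necrotic against control vegetable kidneys was 7; it was 4 with median centring, 4 in a fit of those groups alone and 3 to 6 with 1 array left out. In deficient against control vegetable kidneys it was 1; it was 2 with median centring, with the filter on low values and with a trended, robust prior, 0 in the groups alone and 0 to 2 with 1 array left out. In necrotic against deficient vegetable kidneys it was 1, 0 in the groups alone and 0 to 1 with 1 array left out. In deficient fish against deficient vegetable kidneys it was 3, 0 in the groups alone and 1 to 3 with 1 array left out; against necrotic kidneys it was 7, and 5 to 7 under every setting. The interaction for necrotic kidneys gave 3, and 0 to 3 with 1 array left out; for the deficient vegetable kidneys it gave 0, and 1 (Bcl2a1) with the filter and with the trended, robust prior. The groups-alone fits have fewer residual degrees of freedom; otherwise the cause was not tested.

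The sign of uncalled differences turned for Ripk1 in deficient fish against necrotic kidneys (0.073 with median centring; -0.089 to 0.013 with 1 array left out). With 1 array left out it also turned in necrotic against deficient vegetable kidneys for Ripk3 (-0.14 to 0.65) and Il1b (-0.28 to 1.03).

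Same-numbered pools of different groups did not deviate together (correlations of -0.17 to 0.14 over 10 pairs of groups), so the number was not used as a pairing. With it as a replicate block, 7 genes passed in necrotic against control vegetable kidneys and 2 in the interaction for necrotic kidneys, where Casp4 was lost.

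Over all probe sets, counts moved more than 1.5 times. Deficient against control vegetable kidneys gave 330 calls, 540 with the trended prior, 82 in the groups alone and 32 to 714 with 1 array left out. Control fish against control vegetable kidneys gave 54, then 115 with the filter, 124 with the trended prior, 5 in the groups alone and 3 to 76 with 1 array left out. Deficient fish against deficient vegetable kidneys gave 507, 25 in the groups alone and 87 to 691 with 1 array left out. The interaction for deficient vegetable kidneys gave 30, then 61 with the filter, 67 with the trended prior, 11 with the replicate block, 14 in the groups alone and 0 to 90 with 1 array left out. Leaving out 1 array gave 3003 to 6431 calls in place of 6098 in necrotic against control vegetable kidneys, 1040 to 3125 in place of 2860 (654 in the groups alone) in necrotic against deficient vegetable kidneys, 3324 to 6084 in place of 5763 in deficient fish against necrotic kidneys, 955 to 2945 in place of 2548 in the interaction for necrotic kidneys, and 0 to 2 in place of 0 in deficient against control fish kidneys.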
